A study of Mus musculus with 12 samples.

Results

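Homeostatic chemokines and the chemokines of dendritic cells were followed here as 10 mouse genes, namely Cxcl12, Cxcl13, Cxcl14, Cxcl16, Cxcr4, Ackr3, Ccl17, Ccl19, Ccl22 and Ccr7. They were found by gene symbol among the 52636 genes of a count table of whole mouse skin, and 9 of the 10 passed the filter on low counts that left 17993 genes for testing. Skin came from BALB/c mice in 4 groups with 3 libraries each. The control group and the LL37 group were given vehicle, and the control+RAPA and LL37+RAPA groups were given rapamycin (RAPA), a drug that blocks mTORC1, a kinase complex that drives cell growth. LL37, the active peptide of human cathelicidin, was injected into the dermis of the back over the days before skin was taken, which produces a rosacea-like dermatitis, and the controls received its vehicle. The study states that the libraries of a group were independent biological samples, and the labels give no litter, day or batch. Whole skin was sequenced, so that fewer cells of a type and less RNA per cell cannot be told apart in any value below.

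Chemokines are small secreted proteins that guide cells along concentration gradients through G protein-coupled receptors. The homeostatic members are made in resting tissue, where stromal CXCL12 holds CXCR4-bearing cells in place, CXCL13 draws B cells through CXCR5, and CXCL14 is made by resting epithelium. CCL17 and CCL22 are made by dendritic cells and macrophages and draw T cells through their shared receptor CCR4, which is a route by which T cells enter skin. CCR7 is the receptor that takes mature dendritic cells and T cells from skin to the lymph node along its ligands CCL19 and CCL21, and CXCL16 is a membrane-bound chemokine of macrophages and dendritic cells whose receptor is CXCR6.

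Libraries held between 15734559 and 23271784 counts, and 3 counts, taken as the floor for counting error, were worth between 0.123 and 0.184 CPM (a gene's counts relative to the library total, with edgeR's TMM factors). LL37 replicate 3 stood apart from its group on the first principal component, which took 68.3% of the variance, at 64.4 against 133 and 129 for the other 2 LL37 libraries, with LL37+RAPA libraries between 0.527 and 29.8 and all libraries without LL37 below -50. Its summed neutrophil marker level was 274 CPM, against 1876 and 2580 CPM in the other LL37 libraries, and its summed skeletal muscle level was 1081 CPM, against 157 and 195 CPM. Calls of the 9 genes and of the listed genes that change without it in LL37 vs control or LL37 vs LL37+RAPA are given below. For many listed genes only the value without it, or a count, is given. For the listed genes this was added after the data were seen. Muscle and fat markers moved with the groups. The 20 muscle genes summed to between 41705 and 60191 CPM in control, between 157 and 1081 CPM in LL37 and between 3611 and 7674 CPM in LL37+RAPA, and the part of this in the chemokine results was not tested beyond the fit with those genes taken out of the table, which moved no call of the 9 genes.

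A gene was called where its Benjamini-Hochberg adjusted p over all tested genes was under 0.05 and its log2 fold change was above 1 in size. Of the 9 tested genes, 3 rose and 1 fell in LL37 vs control. Over all genes in that comparison, 8.73% were called higher and 10.8% lower. Against LL37+RAPA, 1 of the 9 was higher in LL37 and 2 were lower, beside 4.33% and 5.8% of all genes. In LL37+RAPA vs control 3 were higher and 1 lower, beside 2.15% and 4.35%, and in LL37+RAPA vs control+RAPA again 3 were higher and 1 lower, beside 4.07% and 4.32%. In control+RAPA vs control, edgeR called 0 of the 9 genes and 0% of all genes in either direction, with 1 of the 9 at an unadjusted p under 0.05, and DESeq2 called 0 of the 9. These comparisons share their libraries and are not independent of each other. The median log2 fold change of the 9 genes was 0.88 in LL37 vs control, where that of all genes was -0.0049, and 0.44 in LL37 vs LL37+RAPA, where that of all genes was -0.0042.

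**Figure D1:**
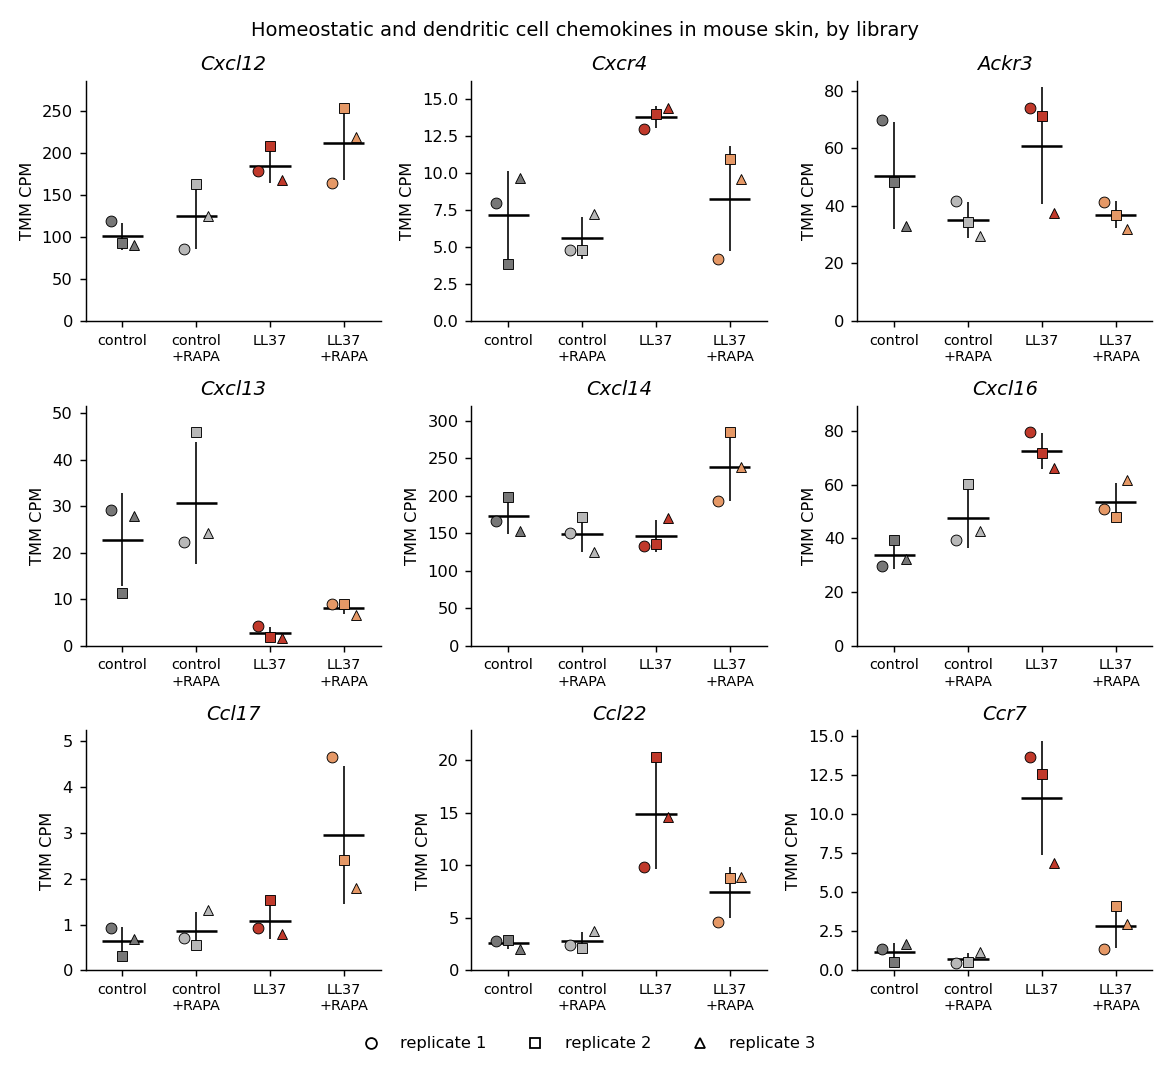
TMM CPM of 9 genes in each of the 12 libraries (y axis, linear, from 0) by group (x axis), with 1 point per library, shaped by replicate number, a bar at the mean and a line of 1 SD either side (n = 3). Ccr7, Ccl22 and Cxcl16 are highest in the LL37 libraries, Cxcl13 is lowest there, and Ccl17 and Cxcl14 have their highest means in LL37+RAPA.

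Ccl22 and Ccl17 encode the paired ligands of CCR4 and lie on the plus strand within a span of 66447 bases, with Cx3cl1 as the single coding gene annotated between them. Ccl22 (chr8:94745590-94751699, GRCm38) rose with LL37, whereas Ccl17 (chr8:94810453-94812036) did not pass the test in LL37 vs control and was called in the 3 comparisons of LL37+RAPA with another group. Ccl22 stood at 2.80, 2.92 and 2.002 CPM in the control libraries and at 9.85, 20.3 and 14.6 CPM in the LL37 libraries. With RAPA it stood at 4.65, 8.80 and 8.84 CPM in LL37+RAPA and at 2.39, 2.17 and 3.74 CPM in control+RAPA. Every LL37 library lay above every other library, and every LL37+RAPA library lay above every library without LL37. The LL37 change in Ccl22 was 5.76-fold (log2 fold change 2.53 ± 0.34 SE, edgeR adjusted p = 0.000171), and in LL37+RAPA vs control it was 2.88-fold (1.53 ± 0.34 SE, adjusted p = 0.0106). Ccl22 was also higher in LL37 than in LL37+RAPA with an adjusted p of 0.0383 but a log2 fold change just under the limit of 1 (0.9997 ± 0.31 SE), so that it was not called. Without LL37 replicate 1 it was called at 1.23 (adjusted p = 0.0309) and without LL37 replicate 3 at 1.01 (adjusted p = 0.0412). The call in LL37+RAPA vs control was lost without control replicate 3 (1.37, adjusted p = 0.0518). With RAPA on both sides the LL37 difference was called at 1.43 ± 0.34 SE (edgeR adjusted p = 0.0118). That call was lost without LL37+RAPA replicate 2 (1.29, adjusted p = 0.0506), control+RAPA replicate 1 (1.35, adjusted p = 0.0512) or control+RAPA replicate 2 (1.28, adjusted p = 0.0523).

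Ccl17 stood at 0.917, 0.308 and 0.685 CPM in control, at 0.925, 1.53 and 0.801 CPM in LL37 and at 0.705, 0.543 and 1.32 CPM in control+RAPA, and the ranges of these 3 groups overlap. In LL37+RAPA it stood at 4.65, 2.42 and 1.80 CPM, above every other library. These are low counts, between 6 and 25 per library outside LL37+RAPA and 98, 59 and 40 within it. Ccl17 was 4.62-fold higher in LL37+RAPA than in control (log2 fold change 2.21 ± 0.49 SE, edgeR adjusted p = 0.0116) and 3.45-fold higher than in control+RAPA (1.79 ± 0.48 SE, adjusted p = 0.0227). It was 2.73-fold lower in LL37 than in LL37+RAPA (-1.45 ± 0.47 SE, adjusted p = 0.0429). That last call was lost without any one of LL37 replicates 1, 2 and 3 (adjusted p = 0.138, 0.0502 and 0.0844), LL37+RAPA replicate 1 (-0.97, adjusted p = 0.192) or LL37+RAPA replicate 2 (0.0626), and the call against control+RAPA was lost without LL37+RAPA replicate 1 (1.31, adjusted p = 0.0967), control+RAPA replicate 1 (0.0882) or control+RAPA replicate 2 (0.0930). The interaction term, which asks whether the LL37 effect differs with RAPA, was 1.03 ± 0.71 SE for Ccl17 (adjusted p = 0.422) and -1.10 ± 0.47 SE for Ccl22 (adjusted p = 0.196), so that neither gene passed the test of that difference.

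The ratio of both genes within a library does not depend on how libraries are scaled. There were 10.6, 13.2 and 18.2 Ccl22 counts per Ccl17 count in the LL37 libraries and 1, 3.64 and 4.9 in the LL37+RAPA libraries, so that these groups do not overlap. The control libraries held 3.06, 9.5 and 2.92, and the control+RAPA libraries 3.38, 4 and 2.83. The high control value rests on 6 Ccl17 counts in control replicate 2, and without it the libraries outside the LL37 group lie at 4.9 or below. This ratio was chosen after the values of both genes were seen and is given without a test.

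**Figure D2:**
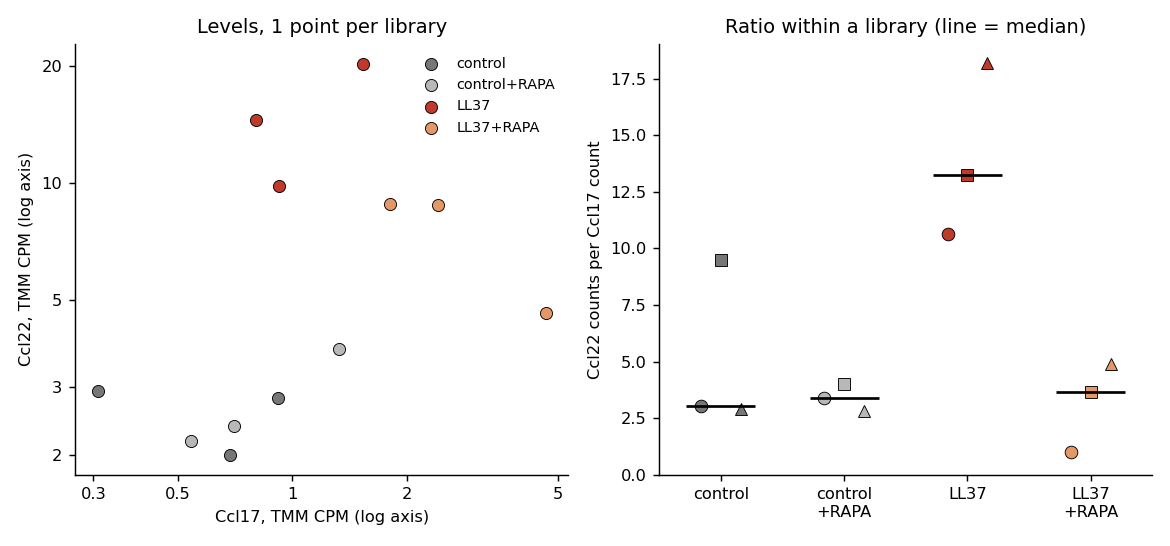
Left, Ccl22 (y axis) against Ccl17 (x axis) in TMM CPM on log axes, with 1 point per library coloured by group. Right, Ccl22 counts per Ccl17 count in each library by group, shaped by replicate number, with a line at the group median; the 3 LL37 libraries lie between 10.6 and 18.2 and the 3 LL37+RAPA libraries between 1 and 4.9.

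The start regions of the pair are printed because the genes are neighbours with different profiles over the 4 groups. Each window is the RefSeq sequence (GRCm38.p6, plus strand) from 250 bases before the RefSeq gene start to 50 bases after it, at chr8:94745434-94745733 for Ccl22 and at chr8:94810203-94810502 for Ccl17. Capitals mark matches to the palindromes TTCNNNNGAA, the spacing that STAT6 prefers, and TTCNNNGAA, the spacing of other STAT factors.
Ccl22: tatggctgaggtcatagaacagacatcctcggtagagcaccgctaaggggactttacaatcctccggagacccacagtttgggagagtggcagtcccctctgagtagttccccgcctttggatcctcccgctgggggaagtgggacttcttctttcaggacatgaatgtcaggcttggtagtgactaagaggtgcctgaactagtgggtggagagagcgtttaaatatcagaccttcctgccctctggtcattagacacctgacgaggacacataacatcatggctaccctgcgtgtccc
Ccl17: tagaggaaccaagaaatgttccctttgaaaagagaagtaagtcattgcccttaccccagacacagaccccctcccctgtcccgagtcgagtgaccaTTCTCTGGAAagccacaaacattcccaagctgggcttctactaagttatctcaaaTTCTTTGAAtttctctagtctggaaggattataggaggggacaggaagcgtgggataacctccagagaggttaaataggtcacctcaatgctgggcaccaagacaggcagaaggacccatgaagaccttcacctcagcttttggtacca
The Ccl17 window holds 1 match to TTCNNNNGAA, which starts 154 bases before the gene start, and 1 to TTCNNNGAA, which starts 99 bases before it, while the Ccl22 window holds neither. Of 32851 RefSeq windows of this length, 6.95% hold the first motif and 8.30% the second, searched on both strands. Neither window holds TGANTCA (AP-1, in 7.81% of all windows), a 10-base NF-kB consensus matched by its letters (4.51%) or TATAAA (13.6%). Among the other members with a window (8 of 10, with none for Cxcl16 and Ccr7), Cxcl14 holds 1 TTCNNNGAA match that starts 191 bases before its start, and Cxcl13, Cxcr4 and Ackr3 hold TATAAA. A match is a description of letters and shows no binding.

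The receptor of the pair, Ccr4, stood at 5.43 ± 0.76 CPM in control, 5.02 ± 3.22 CPM in LL37 and 4.83 ± 1.98 CPM in LL37+RAPA (SD, n = 3) and was called in no comparison. Cx3cl1, the neighbour that encodes fractalkine, stood at 15.2 ± 1.18 CPM in control and 11.9 ± 1.07 CPM in LL37, with a log2 fold change of -0.35 that passed on p (adjusted p = 0.0350) and not on size. Genes that induce CCL17 and CCL22 or act on dendritic cells were taken as a list of 14, of which 12 were tested. In LL37 vs control 7 of these rose and 0 fell. They included Il4ra (2.88), the shared chain of the IL-4 and IL-13 receptors, Csf2rb (2.23), the common chain of the GM-CSF receptor, the alarmin gene Il33 (2.20), Flt3 (1.66), the receptor of a dendritic cell growth factor, and Il13ra1 (1.55). Of the 12, 3 were higher in LL37 than in LL37+RAPA, namely Il4ra (1.54), Il33 (1.43) and Il13ra1 (1.08), all 3 in the direction opposite to that of Ccl17. Il4ra ranged from 134 to 531 CPM in the LL37 libraries and from 104 to 159 CPM in LL37+RAPA. Without LL37 replicate 3 these 3 were called again (1.94, 1.75 and 1.31 for Il4ra, Il33 and Il13ra1), with Csf2rb (1.3999) higher and the dendritic cell growth factor gene Flt3l (-1.04) lower. Flt3l was also called lower in LL37 vs control without that library (-1.12, against -0.70 with it).

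Ccr7, the receptor that leads mature dendritic cells out of skin, rose with LL37 and was lower in LL37+RAPA than in LL37. Ccr7 (chr11:99144196-99155077, minus strand) stood at 1.35, 0.564 and 1.69 CPM in control and at 13.7, 12.6 and 6.88 CPM in LL37, with no overlap, and the lowest LL37 value is that of replicate 3. It stood at 1.38, 4.13 and 2.98 CPM in LL37+RAPA, below every LL37 library, and at 0.488, 0.543 and 1.15 CPM in control+RAPA. The LL37 change was 9.16-fold (log2 fold change 3.20 ± 0.49 SE, edgeR adjusted p = 0.000385), and Ccr7 was 3.87-fold higher in LL37 than in LL37+RAPA (1.95 ± 0.44 SE, adjusted p = 0.0103). Both calls held in every alternative in which Ccr7 was tested. LL37+RAPA vs control gave 1.24 ± 0.49 SE and did not pass (adjusted p = 0.121), while LL37+RAPA vs control+RAPA was called at 1.97 ± 0.52 SE (adjusted p = 0.0211). This last call was lost without LL37+RAPA replicate 2 (1.59, adjusted p = 0.0943), LL37+RAPA replicate 3 (0.0550), control+RAPA replicate 1 (0.0860) or control+RAPA replicate 2 (0.0836). The interaction was -1.22 ± 0.72 SE (adjusted p = 0.337).

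The CCR7 ligand gene Ccl19 (chr4:42754525-42756577, minus strand) was at 0 or 1 count in all 12 libraries, under the floor of 3 counts, so that it was not tested and no fold is given. Ccl19 and the genes for CCL21 have near-identical copies and pseudogenes on chromosome 4, between which the counting could split or discard reads, so that a low count here is uncertain. The second ligand gene, Ccl21a, was at 14 counts or fewer in every library and was not tested either. Ackr4, which encodes a receptor that takes up CCL19 and CCL21 without signalling, stood at 49.0 ± 9.76 CPM in control, 36.8 ± 6.86 CPM in LL37 and 61.5 ± 5.004 CPM in LL37+RAPA (SD, n = 3). Its log2 fold change in LL37 vs LL37+RAPA was -0.74 (adjusted p = 0.00789), under the limit on size. Ccrl2, which encodes a relative of the chemokine receptors that does not signal, was called higher in LL37 against both groups (3.09 against control and 3.65 against LL37+RAPA), over LL37 libraries that ranged from 3.86 to 85.2 CPM.

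Dendritic cell markers were taken as a list of 12 genes, all tested. In LL37 vs control 2 rose and 0 fell, beside 8.73% and 10.8% of all genes. The 2 were Sirpa (1.38), an inhibitory receptor also present on macrophages, and Irf8 (1.36), a factor of dendritic and monocytic cells. The summed level of the 12 was between 183 and 275 CPM in control, between 363 and 384 CPM in LL37, between 305 and 405 CPM in LL37+RAPA and between 179 and 219 CPM in control+RAPA. Sirpa and Irf8 made up most of the rise of that sum in LL37, from 81.3 to 211 CPM and from 19.9 to 51.1 CPM in the means, and the sum is no measure of dendritic cells alone, since the lectin gene Clec10a stood at 64.4 ± 21.5 CPM in control and 52.9 ± 13.3 CPM in LL37 and Cd207, the Langerhans cell marker, at 12.5 ± 1.76 and 11.7 ± 3.01 CPM (SD, n = 3). Of the 12, 1 was called in LL37 vs LL37+RAPA, Mgl2, a lectin of dermal dendritic cells and macrophages, and it was lower in LL37 (-1.41, adjusted p = 0.00577). Mgl2 stood at 8.64 ± 2.98 CPM in control, 7.93 ± 1.36 CPM in LL37 and 21.2 ± 7.22 CPM in LL37+RAPA (SD, n = 3), highest in LL37+RAPA as Ccl17 was. Clec9a was also called lower in LL37 (-1.90) once LL37 replicate 3 was left out. Their part in the Ccl17 result was not tested.

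Of 12 genes of mature, migrating dendritic cells, 9 were tested. In LL37 vs control 4 rose, namely Cd40 (2.53), Cd80 (2.12) and Cd86 (1.34), which encode costimulatory proteins, and Fscn1 (1.68), which encodes an actin-bundling protein, and 1 fell, Slco5a1 (-4.21), a transporter gene. Against LL37+RAPA, Cd40 was higher in LL37 (1.67) and Socs2, a cytokine signalling inhibitor, lower (-1.12). Means of the costimulatory genes were lower in LL37+RAPA than in LL37, as that of Ccr7 was: Cd40 went from 8.84 ± 5.23 to 2.78 ± 0.73 CPM, Cd86 from 14.2 ± 3.46 to 7.99 ± 2.37 CPM and Cd80 from 4.56 ± 2.12 to 2.80 ± 1.29 CPM (SD, n = 3). Cd86 passed on p and not on size (0.82, adjusted p = 0.0445), and Cd80 did not pass (0.69, adjusted p = 0.3003). Without LL37 replicate 3, Cd86 (1.001, adjusted p = 0.0130) and Slco5a1 (-1.83) were called as well. Lamp3, another gene of the 12, was at 3 counts or fewer in every library and was not tested. The summed level of the 12 was between 159 and 189 CPM in control, between 233 and 240 CPM in LL37 and between 243 and 272 CPM in LL37+RAPA. More abundant members dominate that sum, among them Fscn1 (114 and 96.4 CPM in LL37 and LL37+RAPA), Cacnb3 (45.7 and 63.1 CPM), Nudt17 (28.1 and 47.6 CPM) and Socs2 (13.9 and 30.3 CPM). T cells also carry CCR7. Of 9 T cell genes, 6 were tested, and Cd4, the co-receptor of helper T cells, rose in LL37 vs control (1.88), while Cd4 (2.19) and Cd3g (1.16) were higher in LL37 than in LL37+RAPA. The summed T cell level was between 14.9 and 19.9 CPM in control, 23.7 and 26.9 CPM in LL37, 11.4 and 12.4 CPM in LL37+RAPA, and 9.50 and 11.9 CPM in control+RAPA. Whether cells of these types carried the Ccr7 difference was not tested.

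**Figure D3:**
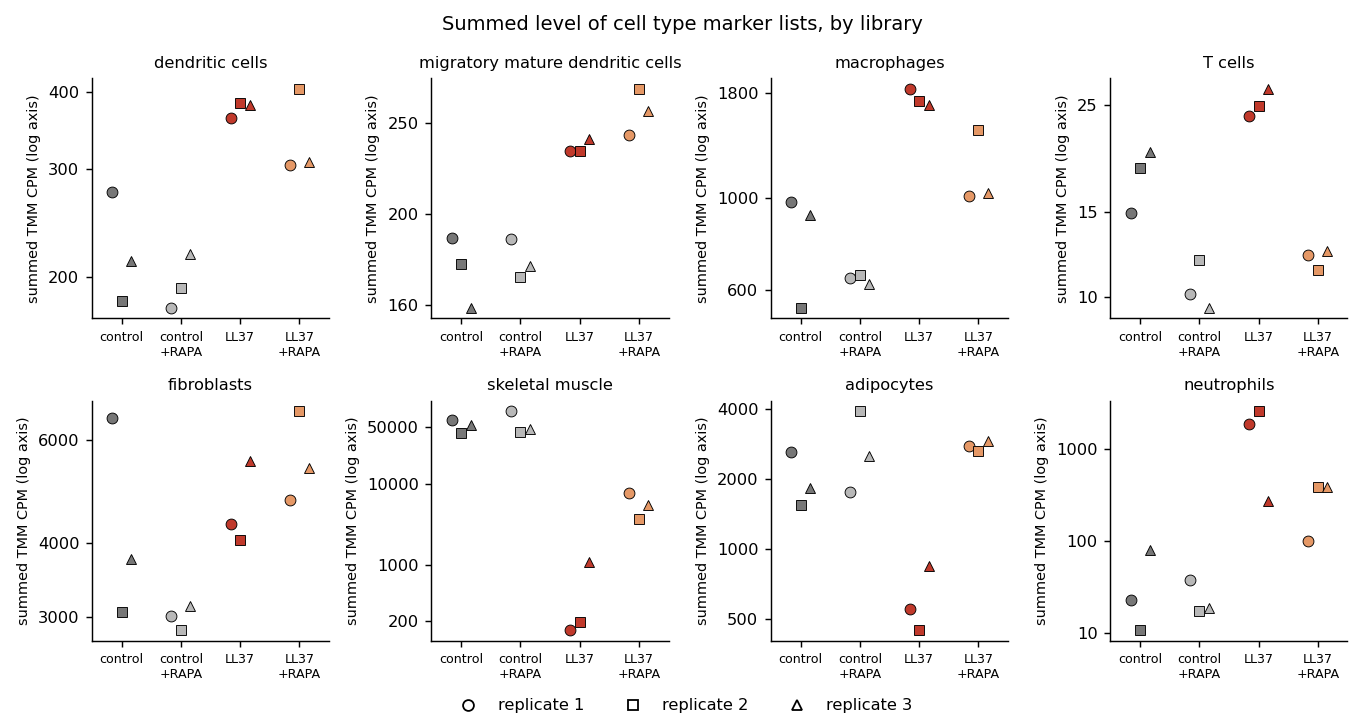
Summed TMM CPM of 8 marker lists (y axis, log scale) in each library by group (x axis), with 1 point per library shaped by replicate number. The dendritic cell sum, most of whose rise in LL37 comes from Sirpa and Irf8, lies between 363 and 384 CPM in LL37 and between 305 and 405 CPM in LL37+RAPA, whereas the T cell sum lies between 23.7 and 26.9 CPM and between 11.4 and 12.4 CPM.

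Among the homeostatic CXC chemokines, Cxcl13, the B cell chemoattractant, was the one that fell. Cxcl13 (chr5:95956951-95961068, plus strand) stood at 29.2, 11.4 and 27.9 CPM in control and 22.2, 45.9 and 24.2 CPM in control+RAPA. In LL37 it stood at 4.30, 1.96 and 1.70 CPM and in LL37+RAPA at 9.06, 8.97 and 6.58 CPM. The groups with and without LL37 do not overlap, and every LL37+RAPA library lay above every LL37 library. Cxcl13 was 8.61-fold lower in LL37 than in control (log2 fold change -3.11 ± 0.46 SE, edgeR adjusted p = 0.000299), and this call held in every alternative run. It was 3.10-fold lower in LL37 than in LL37+RAPA (-1.63 ± 0.45 SE, adjusted p = 0.0235), a call that was lost without LL37 replicate 2 (0.0781), LL37+RAPA replicate 1 (0.0693) or LL37+RAPA replicate 2 (0.0575). With RAPA on both sides the LL37 difference was -1.91 ± 0.41 SE (adjusted p = 0.00774). LL37+RAPA vs control gave -1.48 ± 0.41 SE (adjusted p = 0.0337), which was lost without control replicate 1 (0.109), control replicate 3 (0.106) or any one of LL37+RAPA replicates 1, 2 and 3 (0.0709, 0.0952 and 0.120). The interaction was 1.20 ± 0.60 SE and did not pass (adjusted p = 0.261).

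The receptor of CXCL13, Cxcr5, was at 3 counts or fewer in every control and control+RAPA library, between 4 and 37 counts in LL37 and between 2 and 7 in LL37+RAPA, and was filtered out. B cell markers were near the floor. Of 6 genes only Cd22 was tested, and it was called higher in LL37 against control (2.30) and against LL37+RAPA (2.08), while Ms4a1, a defining B cell marker, held 4 counts or fewer in every library. Lymphotoxin signalling through the non-canonical NF-kB pathway induces CXCL13, CCL19 and CCL21 in lymphoid stroma, and 14 of its genes were tested. In LL37 vs control 3 rose, namely Ltb (2.90), Tnfsf14 (5.16), whose product LIGHT shares the lymphotoxin receptor, and Tnfsf11, which encodes RANKL, and 0 fell. Tnfsf11 held 2 counts or fewer in every control library and between 10 and 52 in LL37, so that no fold is given for it. Tnfsf14 held between 2 and 10 counts in control and between 75 and 422 in LL37, so that the size of its change is uncertain. In LL37 vs LL37+RAPA edgeR called 0 of the 14, with 5 at an unadjusted p under 0.05, and DESeq2 called 1 (Tnfsf11, higher in LL37). Without LL37 replicate 3 edgeR called 3 higher in LL37, Ltb (1.19), Tnfsf14 (1.55) and Tnfsf11. Nfkb2 was called higher in LL37 vs control without that library (1.06, against 0.84 with it). Ltb, a ligand subunit, stood at 2.30 ± 0.68 CPM in control, 17.3 ± 9.86 CPM in LL37 and 9.45 ± 4.41 CPM in LL37+RAPA (SD, n = 3), opposite in order to Cxcl13, and its receptor Ltbr gave 0.53 in LL37 vs control, under the limit on size. Muscle and fat markers were also lowest in LL37. All 19 tested muscle genes and all 8 adipocyte genes were called lower in LL37 than in control and than in LL37+RAPA, and the adipocyte genes summed to between 1546 and 2601 CPM in control, 451 and 847 CPM in LL37 and 2643 and 2900 CPM in LL37+RAPA. Their part in the Cxcl13 result was not tested.

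Cxcl12 (chr6:117168535-117181367, plus strand), the stromal ligand of CXCR4, stood at 119, 92.6 and 89.9 CPM in control and at 178, 208 and 167 CPM in LL37. It stood at 164, 253 and 218 CPM in LL37+RAPA and at 85.5, 163 and 124 CPM in control+RAPA. Every library with LL37 lay above every library without it, by a narrow margin, since the lowest of the former stood at 164 CPM and the highest of the latter at 163 CPM. The LL37 change was 1.84-fold and passed on p but not on size (log2 fold change 0.88 ± 0.22 SE, edgeR adjusted p = 0.00797). Without control replicate 1 it was called at 1.01 (adjusted p = 0.00888). With RAPA on both sides the LL37 difference was 0.77 ± 0.22 SE (adjusted p = 0.0311), also under the limit on size, and it was called without control+RAPA replicate 2 (1.01, adjusted p = 0.0120). LL37+RAPA vs control was called at 2.11-fold (1.08 ± 0.22 SE, adjusted p = 0.00746), and fell under the limit on size without control replicate 3 (0.99) or LL37+RAPA replicate 2 (0.93). LL37 and LL37+RAPA differed by -0.20 ± 0.22 SE (adjusted p = 0.540), and the interaction was -0.11 ± 0.31 SE (adjusted p = 0.873).

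Cxcr4 (chr1:128588199-128592293, minus strand), the signalling receptor of CXCL12, stood at 7.98, 3.84 and 9.64 CPM in control and at 13.0, 14.0 and 14.4 CPM in LL37. In LL37+RAPA it stood at 4.22, 10.97 and 9.60 CPM. The LL37 libraries lay above all others and close together, but the difference from control did not pass (0.95 ± 0.36 SE, edgeR adjusted p = 0.0537). It was called without control replicate 3 (1.21, adjusted p = 0.0415) and with libraries scaled to total counts alone (1.03, adjusted p = 0.0409). LL37 vs LL37+RAPA gave 0.73 ± 0.36 SE (adjusted p = 0.155). Ackr3 (chr1:90203980-90216751, plus strand), a receptor that takes up CXCL12 without G protein signalling, stood at 74.1, 71.4 and 37.4 CPM in LL37, at 69.9, 48.4 and 32.9 CPM in control and at 41.5, 37.0 and 32.1 CPM in LL37+RAPA. Its groups overlap, and it was called in no comparison (0.27 ± 0.29 SE in LL37 vs control, adjusted p = 0.471). LL37 vs LL37+RAPA gave 0.72 ± 0.29 SE for Ackr3 (adjusted p = 0.0864), and 0.98 without LL37 replicate 3 (adjusted p = 0.0103), past the threshold on p and under the limit on size.

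The peptidase gene Dpp4, whose product trims and inactivates CXCL12, fell with LL37 with and without RAPA. It stood at 53.1 ± 6.60 CPM in control, 13.2 ± 6.70 CPM in LL37 and 14.1 ± 1.48 CPM in LL37+RAPA (SD, n = 3), with a log2 fold change of -2.003 in LL37 vs control (adjusted p = 0.000214) and -0.09 between LL37 and LL37+RAPA (adjusted p = 0.842). Dpp4 also marks a fibroblast subset together with Pi16 and Dpt, and of the 10 fibroblast genes these 2 were called lower in LL37 vs control (-2.47 and -1.60) and 0 higher. Lum (0.88, edgeR adjusted p = 0.0048) and Pdgfra (0.96, adjusted p = 0.0219) were higher and Fap (-0.93, adjusted p = 0.0265) lower, under the limit on size. Fap (-1.39) was called lower and Pdgfra (1.06) higher as well without LL37 replicate 3. Dpt and Fap were called lower in LL37 than in LL37+RAPA only without that library (-1.29 and -1.45, against -0.89 and -0.96 with it). The summed fibroblast level was between 3064 and 6520 CPM in control and between 4057 and 5531 CPM in LL37. It was between 4744 and 6699 CPM in LL37+RAPA and between 2855 and 3135 CPM in control+RAPA. Between those 2 groups, 3 fibroblast genes were called higher in LL37+RAPA and 1 lower, beside 4.07% and 4.32% of all genes. Of the 8 blood endothelium genes, Tek, the angiopoietin receptor, was lower in LL37 than in control (-1.63) and than in LL37+RAPA (-1.36), and of the 5 lymphatic endothelium genes, Lyve1, a hyaluronan receptor, was lower in LL37 than in LL37+RAPA (-1.08), a call lost without LL37 replicate 3 (-0.92, adjusted p = 0.0653). The part of stromal cells in the Cxcl12 values was not tested.

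Cxcl14 (chr13:56288643-56296551, minus strand) was the most abundant of the 9 genes per length in every group, and its mean was highest in LL37+RAPA. It stood at 167, 198 and 152 CPM in control, 133, 135 and 171 CPM in LL37 and 150, 171 and 125 CPM in control+RAPA, and these groups overlap. In LL37+RAPA it stood at 192, 284 and 238 CPM, above every LL37 and control+RAPA library. LL37 vs control gave -0.24 ± 0.17 SE (edgeR adjusted p = 0.281). LL37 vs LL37+RAPA gave -0.71 ± 0.17 SE (adjusted p = 0.0128) and LL37+RAPA vs control+RAPA gave 0.68 ± 0.17 SE (adjusted p = 0.0156), both past the threshold on p and under the limit on size.

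The interaction was 0.92 ± 0.24 SE for Cxcl14 (adjusted p = 0.0577) and came closest to the threshold together with that of Cxcl16. In the interaction edgeR called 0 of the 9 genes, beside 1.73% of all genes called higher and 0.65% lower, with 3 of the 9 (Cxcl14, Cxcl16 and Ccl22) at an unadjusted p under 0.05, and DESeq2 also called 0. Without LL37 replicate 3 the interaction of Cxcl14 was called at 1.05 (adjusted p = 0.0111). Keratinocytes are a main source of CXCL14 in skin. Of 8 keratinocyte genes, Itga6 (1.39) and Krt14 (1.12) of the basal layer rose in LL37 vs control, Krt15 of resting basal cells fell (-1.06), and in LL37 vs LL37+RAPA edgeR called 0 of the 8, with 5 at an unadjusted p under 0.05, and DESeq2 called 0. Without LL37 replicate 3 edgeR called Itga6 higher (1.16) and Krt15 lower (-1.13) there.

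Cxcl16 (chr11:70453983-70459984, minus strand), the ligand of CXCR6 and a scavenger of oxidized lipoprotein, rose with LL37. It stood at 29.6, 39.3 and 32.2 CPM in control and at 79.4, 71.9 and 66.0 CPM in LL37, with no overlap. It stood at 50.9, 47.9 and 61.6 CPM in LL37+RAPA and at 39.5, 60.3 and 42.5 CPM in control+RAPA, both between the control and LL37 libraries. The LL37 change was 2.15-fold (log2 fold change 1.10 ± 0.17 SE, edgeR adjusted p = 0.000417) and held in every alternative run. LL37 vs LL37+RAPA gave 0.44 ± 0.17 SE (adjusted p = 0.0770), and with RAPA on both sides the LL37 difference was 0.17 ± 0.17 SE (adjusted p = 0.546). The interaction was -0.93 ± 0.24 SE (adjusted p = 0.0565) and was called without control replicate 2 (-1.02, adjusted p = 0.0491). In control+RAPA vs control Cxcl16 was the gene with an unadjusted p under 0.05 (0.49 ± 0.17 SE, adjusted p = 0.489).

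Cxcl16 shares 552 exonic bases with Zmynd15 on the other strand, and the counting is not stated to have used strand, so that reads of the shared bases cannot be told apart. Zmynd15 was listed at 10.7 ± 1.85 CPM in control, 14.9 ± 3.81 CPM in control+RAPA, 28.1 ± 5.14 CPM in LL37 and 20.2 ± 2.23 CPM in LL37+RAPA (SD, n = 3), the same order as Cxcl16. The proteases that release CXCL16 from the membrane, Adam10 and Adam17, gave 0.74 ± 0.09 SE (adjusted p = 0.000111) and 0.76 ± 0.14 SE (adjusted p = 0.00147) in LL37 vs control, under the limit on size. The receptor gene Cxcr6 stood at 0.874 ± 0.246 CPM in control, 1.68 ± 0.193 CPM in LL37 and 0.825 ± 0.255 CPM in LL37+RAPA (SD, n = 3) and was called higher in LL37 than in LL37+RAPA (1.02, adjusted p = 0.0338), with 0.93 against control (adjusted p = 0.0314), which was called at 1.01 without LL37 replicate 3. Of 9 macrophage genes, 4 rose in LL37 vs control, among them Mrc1 (1.88), Adgre1 (1.54) and Cd68 (1.33), and Adgre1 was higher in LL37 than in LL37+RAPA (1.42). The summed macrophage level was between 543 and 976 CPM in control, 1678 and 1834 CPM in LL37 and 1010 and 1466 CPM in LL37+RAPA, and its part in the Cxcl16 and Ccl22 values was not tested.

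**Figure D4:**
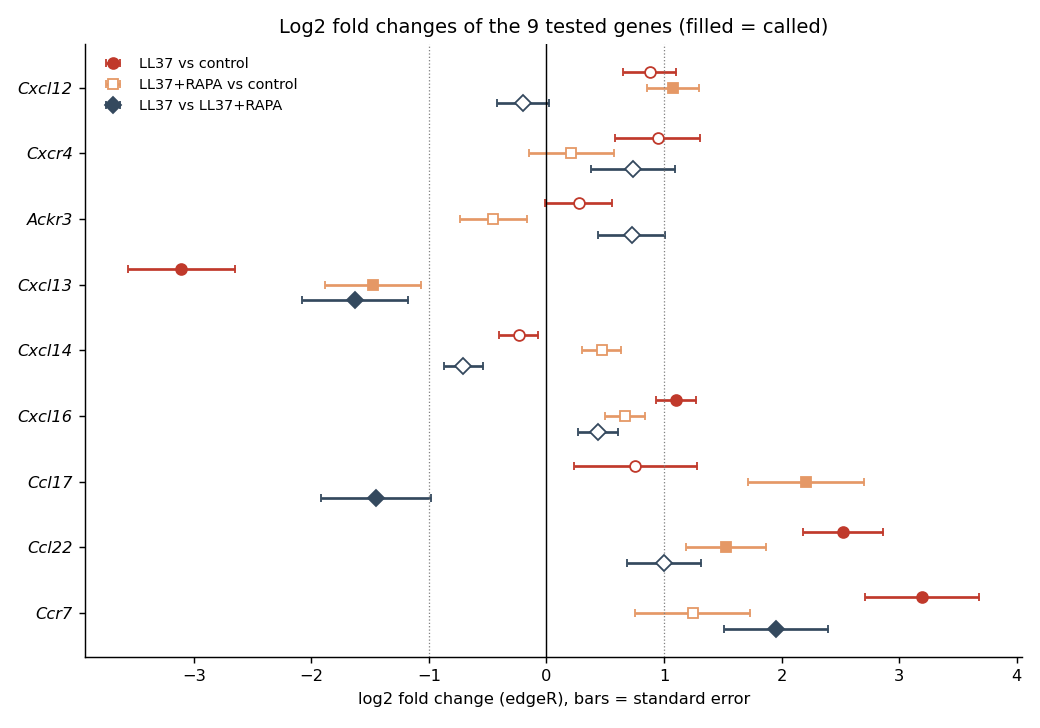
Log2 fold change of the 9 tested genes (y axis) in LL37 vs control, LL37+RAPA vs control and LL37 vs LL37+RAPA, with bars of 1 standard error; filled symbols were called, and dotted lines stand at -1 and 1. Ccr7 lies at 3.20 in LL37 vs control and Cxcl13 at -3.11, and Ccl17 is the gene at 2.21 in LL37+RAPA vs control but at 0.76 in LL37 vs control.

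Of the 24 partner receptors, ligands and proteases of these chemokines, 17 were tested. In LL37 vs control 2 rose (Ccrl2 and Ccl20, at 1.48, the ligand of CCR6) and 2 fell (Dpp4 and Ccl27a, at -1.10, a keratinocyte chemokine for CCR10-bearing T cells). In LL37 vs LL37+RAPA 2 were higher in LL37, namely Ccrl2 and Cxcr6, and without LL37 replicate 3 Ccl27a (-1.38) and Cx3cr1 (-1.77) were called lower as well. Of the 7 mast cell genes edgeR and DESeq2 called 0 in either comparison, with 0 and 2 at an unadjusted p under 0.05. All 7 tested neutrophil genes rose in LL37 vs control, and 3 were higher in LL37 than in LL37+RAPA, namely S100a9 (3.31), S100a8 (3.17) and Cxcr2 (2.22), which gave 3.82, 3.69 and 2.69 without LL37 replicate 3, where 6 of the 7 were called.

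For a rough order between genes, counts were divided by the length of all annotated exons of a gene. That length can exceed the length of the transcripts present. In control the order was Cxcl14 (94.3 CPM per kb), Cxcl13 (19.9), Ackr3 (15.1), Cxcl12 (12.3), Cxcl16 (11.2), Cxcr4 (3.96), Ccl17 (1.24), Ccl22 (1.11) and Ccr7 (0.606 CPM per kb). The ranges of 1 SD either side of the mean overlapped between neighbours from Cxcl13 to Cxcl16 and from Ccl17 to Ccr7 (n = 3). In LL37 the order by CPM per kb was Cxcl14 (79.9), Cxcl16 (23.97), Cxcl12 (22.6), Ackr3 (18.2), Cxcr4 (7.62), Ccl22 (6.41), Ccr7 (5.58), Cxcl13 (2.31) and Ccl17 (2.11), where Cxcl16 to Ackr3, Cxcr4 to Ccr7 and Cxcl13 with Ccl17 were not separated. Cxcl13 thus moved from the second place to the eighth, and Ccl22 stood above Ccl17. In LL37+RAPA Ccl17 (5.75 CPM per kb) stood above Ccl22 (3.20), with Cxcr4 (4.57) between them, and the ranges of 1 SD overlapped between these neighbours.

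Genes with the most similar profile over the 12 libraries were found by the root-mean-square difference of centred log2 CPM, where 0 is identity. The nearest were Tspan4 (0.112) and Cd302 (0.129) for Cxcl12, Gpr35 (0.258) and Tnfrsf26 (0.306) for Ccr7, Zfp217 (0.174) and Sult5a1 (0.179) for Cxcl16, and Gm5587 (0.169) and Slc18b1 (0.176) for Cxcl14. For Cxcr4, Gins3 (0.291) is given. The others were Kbtbd11 (0.229) and Rrp15 (0.243) for Ackr3, Pla2g7 (0.384) and Exo1 (0.386) for Ccl22, Art3 (0.435) and Kbtbd12 (0.510) for Cxcl13, and Chsy3 (0.454) and Meox1 (0.479) for Ccl17. With a prior count of 0.5 in place of 2, both nearest genes stayed nearest for Cxcl12, Cxcl14, Cxcl16, Ackr3 and Ccr7 and 1 of 2 for the other 4 genes. The closest 2 of the 9 genes to each other were Cxcl12 and Cxcl16 (0.357). Such differences tend to be smaller for genes that vary little over the libraries. Cxcl12 and Cxcl16 spanned 1.57 and 1.42 on the log2 scale, against 4.68 for Cxcl13 and 4.55 for Ccr7. The libraries share their groups and the genes share the libraries, so that this likeness is a description.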

How the data were processed

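RNA of whole skin was sequenced as paired-end reads from a TruSeq RNA kit. Raw read counts per Ensembl gene were deposited by the authors without normalization, with no pooling of replicates. The submitters' processing notes list HISAT2 2.0.5, StringTie 1.3.3b, featureCounts 1.5.0-p3, DESeq2 1.16.1 and mm10, whereas the methods of the study name HTSeq for counting and DESeq for testing, so which counter made the table is uncertain. The use of strand is not given in the sources used here. Symbols and positions are those of GENCODE M21 on GRCm38, which matched 52403 of 52636 genes, and 183 of 184 listed genes were found. The 12 columns were mapped to groups by their labels.

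Counts were fitted in R 4.3.3 with edgeR 4.0.16 over all 12 libraries (TMM, filterByExpr with a minimum count of 10, quasi-likelihood F-test, 1 coefficient per group), and p-values were adjusted by Benjamini-Hochberg over all 17993 tested genes. SE is the absolute log2 fold change divided by the square root of F. Calls needed an adjusted p under 0.05 and a log2 fold change beyond 1 in either direction. The study sets these limits on P and on the fold change. Its sequencing methods mention a Benjamini-Hochberg correction of nominal P values, without stating whether it covers this P. CPM values are TMM-scaled, with SD over 3 libraries, and the floor covers counting error only. Genes were named by these rules: all 10 members, up to 5 called genes per list with the largest change in LL37 vs control or LL37 vs LL37+RAPA, the 2 genes with the nearest profile, and, beyond these, partner genes chosen by role after their values were seen (Ccr4, Cx3cl1, Ackr4, Ccl21a, Cxcr5, Ltbr, Adam10, Adam17, Zmynd15, Ms4a1, Lamp3). Some genes that these rules name are not reported here. The members and lists were chosen with earlier results of these data known. The fit and calls were tested on simulated data. DESeq2 1.42.0 was an alternative. Same-numbered replicates deviated from their group means with correlations between -0.188 and 0.263. No common pairing by number was seen, and the main fit used none. Low correlations cannot exclude a shared day or litter, which the labels do not give.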

Additional observations from a re-analysis of the deposited data

How the results depend on the processing

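The 4 calls in LL37 vs control held in all alternatives in which the genes were tested, and fold changes of called genes kept their direction in all alternatives. The number of the 9 genes called moved by more than 1.5 times in these cases. In LL37 vs LL37+RAPA it was 3, with 5 when no limit was set on the fold change and 1 when at least 10 counts were required in every library. In LL37+RAPA vs control+RAPA it was 4, with 2 under that stricter filter, which leaves out Ccl17 and Ccr7. In the interaction it was 0, with 1 (Cxcl14, 1.01) when libraries were scaled to total counts alone. With each library left out in turn, the number called ranged from 4 to 5 in LL37 vs control, from 1 to 3 in LL37 vs LL37+RAPA, from 1 to 4 in LL37+RAPA vs control, from 1 to 4 in LL37+RAPA vs control+RAPA and from 0 to 1 in the interaction, and stayed at 0 in control+RAPA vs control. The fit of the compared groups alone lost Ccl17 in LL37 vs LL37+RAPA (adjusted p = 0.0684), and DESeq2 called Ccl22 there (1.01, adjusted p = 0.0110). Total counts alone moved the median gene by 0.13 in LL37+RAPA vs control and by 0.19 in LL37+RAPA vs control+RAPA on the log2 scale. Over all genes, calls rose from 3516 to 7668 in LL37 vs control and from 1823 to 4359 in LL37 vs LL37+RAPA with no limit on the fold change, and in the interaction from 429 to 1008 with DESeq2.

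With the replicate block, 4 genes were called in LL37 vs control, 3 in LL37 vs LL37+RAPA, 3 in LL37+RAPA vs control and 4 in LL37+RAPA vs control+RAPA, and over all genes the calls in the interaction went from 429 to 199. It lost Ccl17 in LL37 vs LL37+RAPA (-1.38, adjusted p = 0.0694) and Cxcl13 in LL37+RAPA vs control (-1.48, adjusted p = 0.0575) and added Ccl22 in LL37 vs LL37+RAPA (1.00, adjusted p = 0.0356).

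Signs that turned with 1 library left out were all of values that did not pass the test, and the cause was not tested. With each library left out in turn, the log2 fold change of Cxcr4 in LL37+RAPA vs control ranged from -0.10 to 0.52, those of Ccl22 and Ccl17 in control+RAPA vs control from -0.20 to 0.24 and from -0.047 to 0.77, that of Ackr3 in LL37+RAPA vs control+RAPA from -0.035 to 0.23, and the interactions of Ackr3 and Cxcl12 from -0.50 to 0.050 and from -0.28 to 0.15.

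Low counts limit what can be said of Ccl17, Ccl19, Cxcr5 and Ccl21a, among others.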
